A study of Homo sapiens with 9 samples.

Results

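The 40 genes described here are read-outs of the ATF4 pathway and of the unfolded protein response, chosen by name from the 58735 genes counted. All 40 were found once by symbol and all passed the filter on low counts, as did 16350 genes in all. They form an ATF4 arm of 24 genes, of which 16 act in amino acid synthesis, amino acid transport or tRNA charging and 8 are regulators or feedback genes, and an endoplasmic reticulum (ER) arm of 16 genes, which are sensors, chaperones with folding enzymes, and components of ER-associated degradation. RNA was sequenced from SKOV3, a human ovarian cancer cell line, in 3 groups of 3 libraries. WT CDK9 cells express wild-type cyclin-dependent kinase 9 and were kept under basal conditions. In the ALK inhibitor group the same WT CDK9 cells had 24 h with an inhibitor of the receptor tyrosine kinase ALK, which the labels do not name. Tyr19Phe CDK9 cells express CDK9 in which tyrosine 19, a residue that the study assigns to phosphorylation by ALK, is replaced by phenylalanine. The comparisons ask how the stress-response genes differ when ALK is inhibited and when that residue is lost. The 2 CDK9 forms are carried by separate stable lines, so the substitution and any other difference between these lines cannot be told apart. The sources used here do not say whether a line is 1 clone, whether endogenous CDK9 was depleted in the sequenced cells, or whether the 3 libraries of a group came from separate cultures, and p-values then measure only the spread between these libraries, which may be technical.

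ATF4 is a transcription factor whose translation rises when kinases phosphorylate the initiation factor eIF2, either because amino acids are short (the kinase GCN2) or because unfolded proteins collect in the ER (the kinase PERK, encoded by EIF2AK3). It binds composite sites with C/EBP partners and activates genes for amino acid synthesis, amino acid import and tRNA charging, together with genes that end the response. The unfolded protein response has other branches, in which the sensor IRE1 (ERN1) splices XBP1 mRNA and the membrane-bound factor ATF6 is cleaved, and these raise ER chaperones and degradation genes through ER stress elements. Because ATF4 and XBP1 are controlled at translation and splicing, a count of their mRNA is not a measure of either protein's activity.

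Promoter letters known as sites for factors of these pathways are described first. The letters TGATGNAA, the core of the composite site for C/EBP and ATF4 proteins, were searched on both strands of the RefSeq promoter windows (GRCh38.p14, 250 bases before to 50 after the start site). They were found in 5 of the 21 ATF4 arm promoters given (23.8%), those of CHAC1, ASNS, SLC3A2, SLC7A1 and AARS, and in 1 of 16 ER arm promoters (6.25%), that of HERPUD1, against 3.62% of all 35116 promoters. The ER stress element, CCAAT followed after 9 bases by CCACG, was found in 4 of 16 ER arm promoters (25%), those of XBP1, HSPA5, HSP90B1 and CALR, in 0 of 21 ATF4 arm promoters and in 0.0769% of all. The letters TGACGTGG, an XBP1 and ATF6 motif, were found in HYOU1 and in 0.729% of all promoters. PSPH, SHMT2 and SLC7A11 have no entry in the table. A match is a description of the letters in the window, and binding was not measured. The genes were chosen as read-outs of these pathways, so a share above that of all promoters may follow from the choice and is no result. For 5 genes whose values are described below, the 250 bases before the start site are given 5′ to 3′ on the gene's strand, with the motif in capitals (read from the opposite strand as TTNCATCA in CHAC1 and HERPUD1). They are shown because they place an ATF4-type site before 1 gene of each arm. They also place the searched form of the ER stress element before XBP1 and HSPA5, and the TGACGTGG letters before HYOU1. Other spacings of these letters were not searched and are not marked. Examples are CGTGG set 1 base before CCAAT in HYOU1, and ATTGG set 1 base before CCACG in HERPUD1. Capitals therefore do not show every such element in these sequences.
CHAC1 (chr15:40953221-40953470, plus strand): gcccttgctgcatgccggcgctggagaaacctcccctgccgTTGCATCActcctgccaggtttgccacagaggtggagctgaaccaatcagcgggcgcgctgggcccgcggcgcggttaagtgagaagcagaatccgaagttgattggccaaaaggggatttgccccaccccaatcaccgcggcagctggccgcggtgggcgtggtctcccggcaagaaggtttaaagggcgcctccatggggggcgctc
HERPUD1 (chr16:56931892-56932141, plus strand): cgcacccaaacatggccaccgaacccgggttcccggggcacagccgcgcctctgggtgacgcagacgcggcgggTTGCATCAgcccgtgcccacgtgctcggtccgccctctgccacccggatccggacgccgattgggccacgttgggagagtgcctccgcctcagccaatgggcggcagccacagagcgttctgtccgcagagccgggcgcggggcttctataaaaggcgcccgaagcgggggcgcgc
XBP1 (chr22:28800570-28800819, minus strand): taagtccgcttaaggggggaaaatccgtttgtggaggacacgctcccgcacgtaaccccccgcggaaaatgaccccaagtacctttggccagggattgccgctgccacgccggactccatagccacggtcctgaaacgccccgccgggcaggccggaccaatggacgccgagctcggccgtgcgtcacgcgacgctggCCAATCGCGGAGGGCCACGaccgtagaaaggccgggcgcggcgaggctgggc
HSPA5 (chr9:125241344-125241593, minus strand): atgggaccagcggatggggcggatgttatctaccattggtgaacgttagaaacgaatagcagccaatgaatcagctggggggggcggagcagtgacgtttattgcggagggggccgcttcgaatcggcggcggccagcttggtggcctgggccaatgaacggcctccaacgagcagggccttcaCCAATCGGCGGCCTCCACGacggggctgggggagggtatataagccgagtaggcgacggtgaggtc
HYOU1 (chr11:119057206-119057455, minus strand): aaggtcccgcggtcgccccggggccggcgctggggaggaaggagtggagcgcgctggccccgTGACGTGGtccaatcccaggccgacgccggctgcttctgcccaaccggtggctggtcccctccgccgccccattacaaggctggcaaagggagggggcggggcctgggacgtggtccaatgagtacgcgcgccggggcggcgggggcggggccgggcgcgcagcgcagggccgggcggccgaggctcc

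Library totals ranged from 18169050 to 29320184 counts, with the 3 Tyr19Phe CDK9 libraries the deepest, and 3 counts, the limit that a count of 0 allows, correspond to 0.102 to 0.165 CPM (counts scaled to a library of 1e+06) for counting error only. Levels below are CPM scaled by TMM (a correction for library composition), listed in replicate order, and a value such as x ± y on the log2 scale is edgeR's log2 fold change with its standard error. The 6 epithelial markers examined (ERBB2, EPCAM and 4 keratins) were present, with no group mean below 11.97 CPM, and 7 of 8 markers of leukocytes, endothelium and fibroblasts did not pass the filter, with a summed level of 0.190 to 1.42 CPM per library. The exception was the collagen gene COL1A1, at 104 ± 2.37 CPM in WT CDK9 cells and 37.9 ± 7.35 CPM in Tyr19Phe CDK9 cells. In bulk RNA, fewer cells expressing a gene and less RNA per cell cannot be told apart.

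With the ALK inhibitor, 2 of the 40 genes were higher and 5 were lower than in WT CDK9 cells at an adjusted p under 0.05. Over all genes tested, 1.82% were higher and 2.73% lower. These are 297 and 447 genes, which became 406 and 344 when libraries were scaled by their size alone. All 5 lower genes belonged to amino acid synthesis or transport (PSAT1, PHGDH, SLC7A5, SLC3A2 and SLC7A1), and the higher genes were the cystine transporter SLC7A11 and the ER chaperone HSP90B1. The median log2 fold change was -0.035 in the ATF4 arm and 0.045 in the ER arm, beside -0.0010 over all genes tested. In Tyr19Phe CDK9 cells 10 of the 40 were higher and 11 lower than in WT CDK9 cells, against 7.61% and 10.4% of all genes. The latter are 1245 and 1695 genes, which became 1474 and 1483 with upper quartile scaling and 1544 and 1451 with library size alone. The ATF4 arm gave 7 higher and 5 lower of 24, with a median log2 fold change of 0.15, and the ER arm 3 higher and 6 lower of 16, with a median of -0.056, beside a median of 0.0035 over all genes tested. With libraries scaled by the upper quartile or by size alone, 11 ATF4 arm genes were higher in place of 7. Between Tyr19Phe CDK9 cells and the inhibitor group directly, 17 of the 40 were higher and 9 lower in Tyr19Phe CDK9 cells, against 9.57% and 11.1% of all genes. The ATF4 arm then had 14 higher and 2 lower, and the ER arm 3 higher and 7 lower. Both comparisons against WT CDK9 cells use the same WT libraries, and all 3 share 1 model, so they are not independent of each other.

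The 3 libraries of the inhibitor group lay wholly above the WT libraries for 9 of the 40 genes and wholly below them for 9, against 9.31% and 10.3% of all genes. The Tyr19Phe CDK9 libraries lay wholly above those of WT for 14 genes and wholly below for 13, against 15.4% and 17.2%. An exact two-sided permutation test of 3 libraries against 3 cannot give a p below 0.1, so the tests rest on the spread shared across genes in the model.

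**Figure D1:**
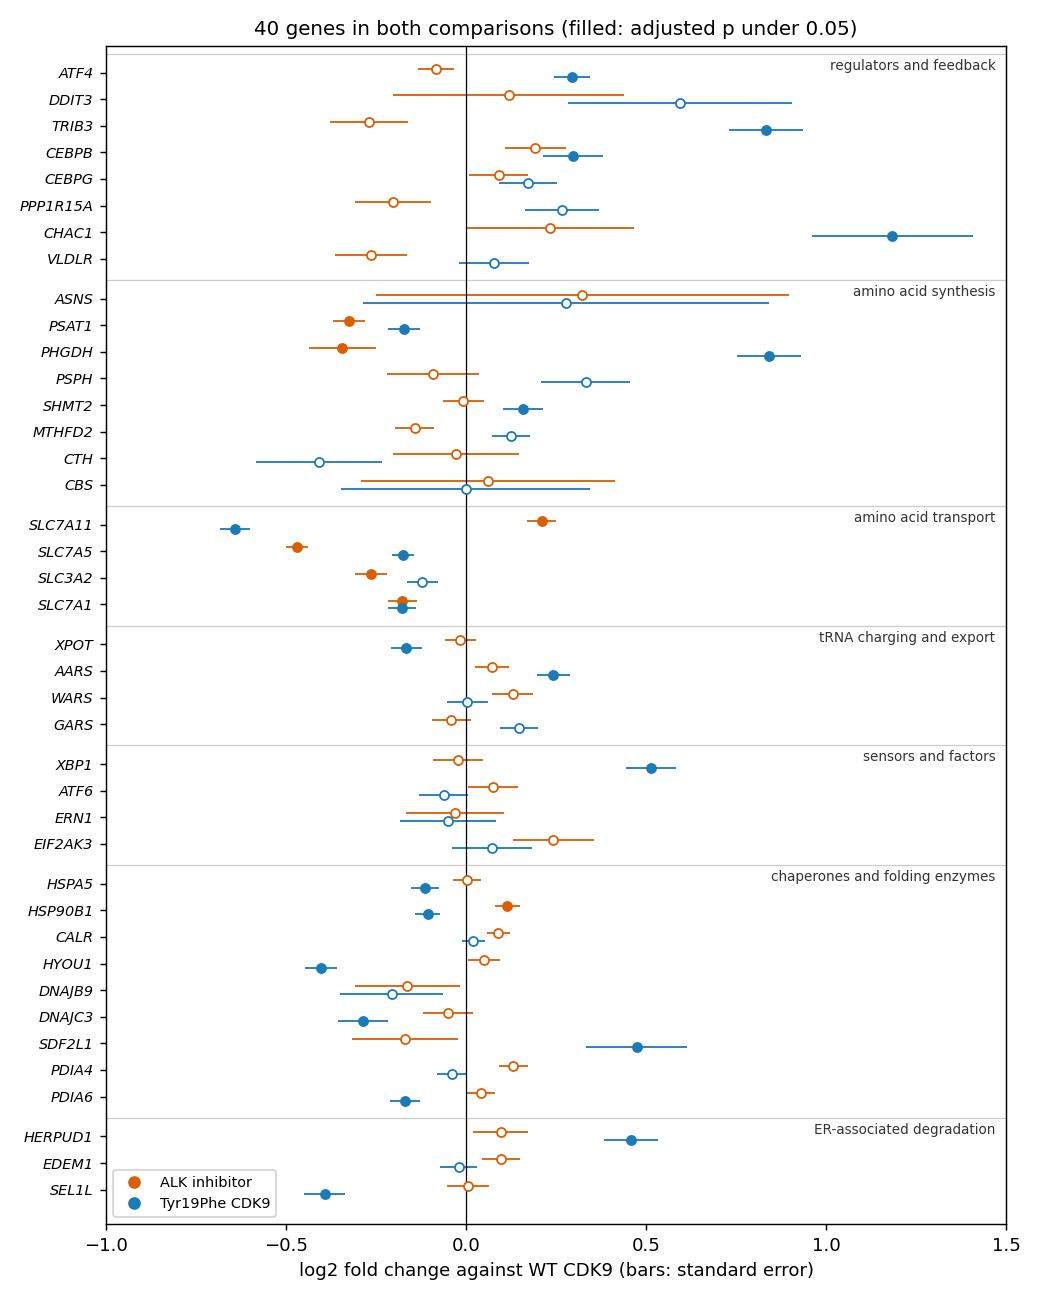
Log2 fold changes of the 40 genes (x axis) by role (y axis), for the ALK inhibitor and for Tyr19Phe CDK9, each against WT CDK9 cells; points are edgeR estimates, bars are standard errors, and filled points passed an adjusted p under 0.05. In Tyr19Phe CDK9 cells CHAC1 (1.18), PHGDH (0.84) and TRIB3 (0.83) lie farthest to the right and SLC7A11 (-0.64) farthest to the left.

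The regulators and feedback genes of the ATF4 arm did not pass the test with the ALK inhibitor, and 4 of 8 rose in Tyr19Phe CDK9 cells, where all 8 estimates were above 0. Over all genes tested, 7.61% were called higher and 8267 of 16350 estimates were above 0. With the inhibitor 1.82% of all genes tested were called higher and 2.73% lower. At an unadjusted p under 0.05 the inhibitor comparison had 1 of the 8 higher and 2 lower, and DESeq2 called 0. Here and below, the share of all genes at that unadjusted threshold was not counted, so such numbers have no background beside them. ATF4 itself (chromosome 22 from 39519695 to 39522685, hg38) measured 136, 134 and 142 CPM in WT CDK9 cells, 128, 132 and 129 CPM with the ALK inhibitor and 162, 175 and 168 CPM in Tyr19Phe CDK9 cells. The Tyr19Phe CDK9 libraries were all above the other 6, and the inhibitor libraries were all just below those of WT. The rise in Tyr19Phe CDK9 cells was 1.23-fold (0.29 ± 0.050 on the log2 scale, adjusted p = 4.75e-05), and the value with the inhibitor was -0.084 ± 0.051 (adjusted p = 0.483). DDIT3, which encodes the pro-apoptotic factor CHOP, was scarce, with 39 to 102 counts per library, and measured 2.10, 2.27 and 2.24 CPM in WT CDK9 cells, 2.37, 2.80 and 2.02 CPM with the ALK inhibitor and 2.68, 3.49 and 3.85 CPM in Tyr19Phe CDK9 cells. Its Tyr19Phe CDK9 libraries lay above those of WT but overlapped those of the inhibitor, and no comparison passed the test (Tyr19Phe CDK9 against WT: 0.59 ± 0.31 on the log2 scale, adjusted p = 0.207). DDIT3 shares 27.2% of its exon bases in GENCODE with MARS on the opposite strand, a gene with 33360 counts against 545 for DDIT3 over all libraries, and the strand setting of the counting is not given in the sources used here.

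Of the C/EBP partners, CEBPB measured 42.7, 47.7 and 39.1 CPM without the inhibitor, 46.9, 49.9 and 51.3 CPM with it and 50.7, 58.2 and 50.1 CPM in Tyr19Phe CDK9 cells. Each Tyr19Phe CDK9 library was above each WT library, while the inhibitor libraries overlapped both groups. CEBPB rose in Tyr19Phe CDK9 cells (0.30 ± 0.084 on the log2 scale, adjusted p = 0.0111), a call lost without WT replicate 3 (adjusted p = 0.0923) or Tyr19Phe replicate 2 (adjusted p = 0.103). CEBPG, the other partner, overlapped between the groups, with means of 50.7 ± 3.63 CPM (WT) and 57.0 ± 5.94 CPM (Tyr19Phe CDK9, SD, n = 3), and did not pass the test (adjusted p = 0.147). Its adjusted p was 0.0318 without Tyr19Phe replicate 3 and ranged up to 0.474 over 16 alternatives.

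Among the feedback genes, TRIB3, a pseudokinase that restrains ATF4 and AKT signalling, measured 22.5, 22.2 and 20.3 CPM in WT CDK9 cells, 16.7, 20.1 and 17.2 CPM with the ALK inhibitor and 37.4, 41.1 and 37.3 CPM in Tyr19Phe CDK9 cells. The Tyr19Phe CDK9 libraries stood clear of all others, and those of the inhibitor lay below WT. TRIB3 was 1.78-fold over WT in Tyr19Phe CDK9 cells (0.83 ± 0.10 on the log2 scale, adjusted p = 2.24e-07), with -0.27 ± 0.11 for the inhibitor (adjusted p = 0.189). CHAC1, which encodes a glutathione-degrading enzyme and carries TGATGNAA letters in the promoter printed above, measured 3.28, 2.74 and 4.70 CPM in WT CDK9 cells, 4.60, 4.06 and 3.93 CPM with the ALK inhibitor and 6.84, 9.15 and 8.41 CPM in Tyr19Phe CDK9 cells. Only the Tyr19Phe CDK9 libraries were apart from the rest, and CHAC1 was 2.27-fold over WT there (1.18 ± 0.22 on the log2 scale, adjusted p = 1.91e-04). PPP1R15A, the phosphatase subunit GADD34 that returns eIF2 to its unphosphorylated form, measured 29.6, 32.7 and 32.6 CPM without the inhibitor, 25.8, 24.3 and 32.2 CPM with it and 34.4, 37.8 and 42.0 CPM in Tyr19Phe CDK9 cells. The inhibitor libraries overlapped those of WT, and the Tyr19Phe CDK9 libraries were above both. Against WT the test was not passed (0.27 ± 0.10 on the log2 scale, adjusted p = 0.0689), although it was passed under 7 of 16 alternatives, 1 of them leaving out Tyr19Phe replicate 1 (adjusted p = 0.0413). The highest adjusted p over the 16 was 0.288. VLDLR, a lipoprotein receptor gene known as an ATF4 target, measured 36.2, 28.7 and 34.5 CPM without the inhibitor, 28.1, 29.1 and 25.7 CPM with it and 38.0, 33.3 and 33.6 CPM in Tyr19Phe CDK9 cells. Its WT libraries spanned most of the range of the other groups, with -0.26 ± 0.10 for the inhibitor and 0.077 ± 0.098 for Tyr19Phe CDK9 on the log2 scale, and neither passed.

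**Figure D2:**
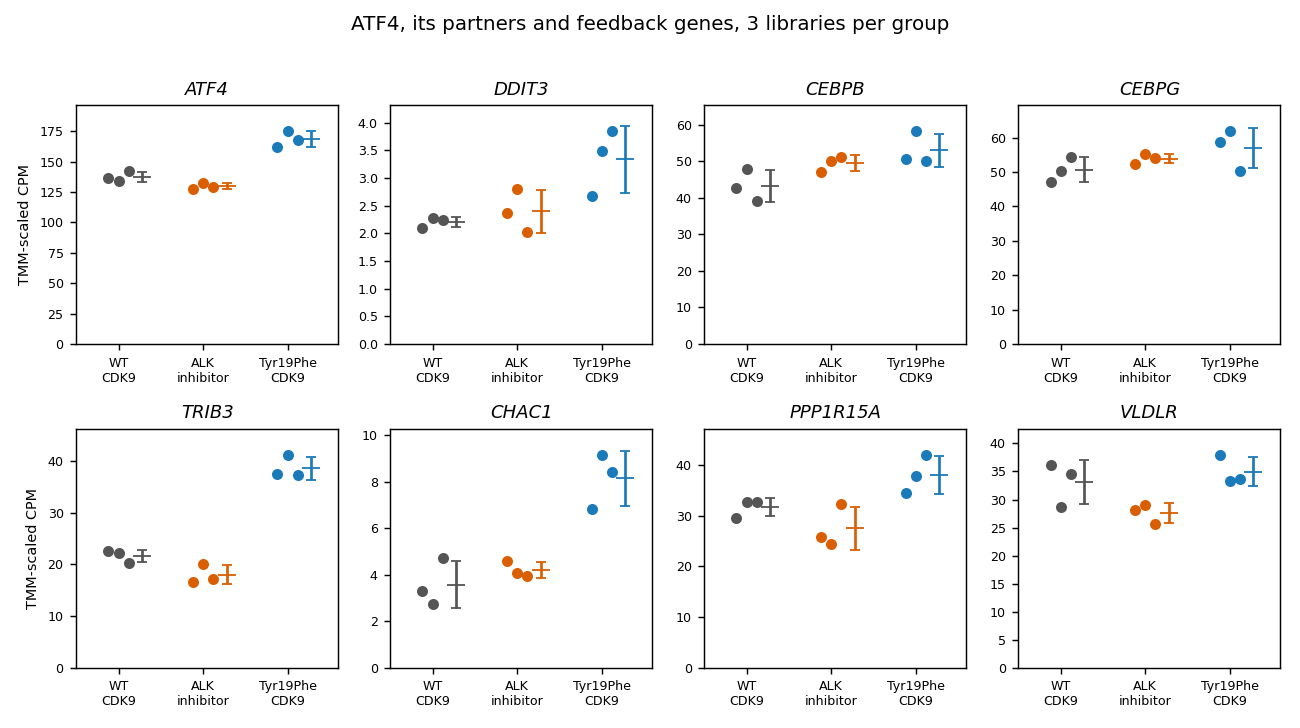
TMM-scaled CPM (y axis, from 0) of the 8 regulators and feedback genes in each library of the 3 groups (x axis); dots are libraries, and the line and bars beside them are the mean and SD of 3. The Tyr19Phe CDK9 dots of ATF4, TRIB3 and CHAC1 lie above all 6 others.

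In amino acid synthesis the 3 enzymes that make serine from a glycolytic intermediate did not change alike. PHGDH, the first enzyme and the step that commits carbon to serine, measured 34.5, 37.7 and 39.0 CPM in WT CDK9 cells, 31.5, 25.5 and 30.5 CPM with the ALK inhibitor and 63.4, 73.6 and 62.4 CPM in Tyr19Phe CDK9 cells. The 3 groups did not overlap, with the inhibitor lowest and Tyr19Phe CDK9 highest. PHGDH was 1.79-fold over WT in Tyr19Phe CDK9 cells (0.84 ± 0.089 on the log2 scale, adjusted p = 1.23e-08) and lower with the inhibitor (-0.34 ± 0.093 on the log2 scale, adjusted p = 0.0243). The call for the inhibitor was lost without WT replicate 2 (adjusted p = 0.0774), WT replicate 3 (0.118) or Ai replicate 2 (0.195), where Ai denotes the inhibitor group. PSAT1, the second enzyme, measured 302, 307 and 299 CPM in WT CDK9 cells, 253, 225 and 246 CPM with the ALK inhibitor and 271, 269.5 and 265 CPM in Tyr19Phe CDK9 cells. Every WT library was above every library of the other groups, and PSAT1 fell with the inhibitor (-0.33 ± 0.044 on the log2 scale, adjusted p = 4.51e-06) and, less far, in Tyr19Phe CDK9 cells (-0.17 ± 0.044 on the log2 scale, adjusted p = 0.00474). PSPH, the phosphatase that finishes serine, measured 20.4, 19.5 and 17.0 CPM without the inhibitor, 15.3, 21.7 and 16.6 CPM with it and 23.2, 23.0 and 25.5 CPM in Tyr19Phe CDK9 cells. Its Tyr19Phe CDK9 libraries were the highest, and the comparison with WT did not pass (0.33 ± 0.12 on the log2 scale, adjusted p = 0.0608), with adjusted p between 0.0375 and 0.239 over 16 alternatives. The levels of the enzymes also differed. Per kilobase of the listed gene length, PSAT1 was at 138 ± 1.67 CPM in WT CDK9 cells, PSPH at 6.87 ± 0.643 and PHGDH at 4.02 ± 0.251 (SD, n = 3). PSPH lies above PHGDH here only through the listed lengths, 2762 bases for PSPH and 9217 bases for PHGDH. Before scaling by length, PHGDH was above PSPH in every WT library. Whether the listed lengths match the mRNAs present was not tested, so no order of PSPH and PHGDH is drawn from these values.

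The mitochondrial folate enzymes that use serine are SHMT2 and MTHFD2. The mean SHMT2 level in WT was 134 ± 6.18 CPM, that with the inhibitor 133 ± 6.53 CPM and that in Tyr19Phe CDK9 cells 149.5 ± 10.1 CPM (SD, n = 3), and SHMT2 rose in the last (0.16 ± 0.056 on the log2 scale, adjusted p = 0.0452). That call was lost without WT replicate 2 (adjusted p = 0.0605), WT replicate 3 (0.199) or Tyr19Phe replicate 2 (0.272). MTHFD2 measured 118, 121 and 119 CPM without the inhibitor, 111, 109 and 103 CPM with it and 127, 129 and 134 CPM in Tyr19Phe CDK9 cells. Its groups did not overlap, and neither comparison with WT passed (adjusted p = 0.154 and 0.101). In the transsulfuration pathway, which makes cysteine, CTH was at 9.84 ± 1.29 CPM in WT and 7.41 ± 0.674 CPM in Tyr19Phe CDK9 cells (-0.41 ± 0.17 on the log2 scale, adjusted p = 0.107). CBS varied from 2.69 to 12.6 CPM between libraries of the same group, and its near-identical copy CBSL held 653 counts against 1323 for CBS, so its level is uncertain.

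ASNS, the asparagine synthetase gene and a standard ATF4 read-out, was close to absent. It held 9 to 43 counts per library and measured 1.18, 0.475 and 1.18 CPM in WT CDK9 cells, 0.712, 1.92 and 0.930 CPM with the ALK inhibitor and 1.46, 1.07 and 0.905 CPM in Tyr19Phe CDK9 cells. All groups overlapped, and the estimates of 0.32 ± 0.57 for the inhibitor and 0.28 ± 0.56 for Tyr19Phe CDK9 have standard errors larger than themselves. The standard error is not a limit of detection, and a change larger than it could also have been missed at this depth. At 0.212 ± 0.0911 CPM per kilobase it had the lowest level of the 40 genes in WT CDK9 cells. In GENCODE 49.3% of its exon bases are shared on the same strand with AC079781.5, which held 69 counts against 219 for ASNS over all libraries, and reads in a shared exon may have been left uncounted, which was not tested.

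The transport genes gave the largest group of inhibitor calls, with 1 higher and 3 lower of 4, beside 1.82% and 2.73% of all genes tested. SLC7A5, the large neutral amino acid transporter LAT1, was the most abundant of the 40 genes per length (616 ± 26.6 CPM per kilobase in WT) and measured 2902, 3061 and 2812 CPM in WT CDK9 cells, 2152, 2118 and 2068 CPM with the ALK inhibitor and 2609, 2613 and 2547 CPM in Tyr19Phe CDK9 cells. The groups did not overlap, with WT highest, and SLC7A5 fell with the inhibitor (-0.47 ± 0.030 on the log2 scale, adjusted p = 8.84e-13) and in Tyr19Phe CDK9 cells (-0.18 ± 0.030 on the log2 scale, adjusted p = 5.75e-05). SLC3A2, the heavy chain that pairs with both SLC7A5 and SLC7A11, measured 758, 831 and 732 CPM without the inhibitor, 669.7, 658 and 606 CPM with it and 717, 740.0 and 676 CPM in Tyr19Phe CDK9 cells. It fell with the inhibitor (-0.26 ± 0.044 on the log2 scale, adjusted p = 1.16e-04), and the comparison of Tyr19Phe CDK9 with WT gave -0.12 ± 0.044 at the threshold (adjusted p = 0.0503, 0.0199 without WT replicate 3 and 0.036 without Tyr19Phe replicate 2). The adjusted p of this last comparison ranged from 0.0108 to 0.388 over 16 alternatives. SLC7A1, the cationic amino acid transporter, fell in both, by nearly equal amounts (-0.18 ± 0.040 and -0.18 ± 0.040 on the log2 scale, adjusted p = 0.00466 and 0.00124).

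SLC7A11, the cystine and glutamate exchanger xCT that feeds glutathione synthesis, differed from the other transporters. It measured 474, 449 and 480.2 CPM in WT CDK9 cells, 548, 556 and 519 CPM with the ALK inhibitor and 295, 313 and 292 CPM in Tyr19Phe CDK9 cells. The groups did not overlap, with the inhibitor highest and Tyr19Phe CDK9 lowest. SLC7A11 rose with the inhibitor (0.21 ± 0.041 on the log2 scale, adjusted p = 9.21e-04) and fell in Tyr19Phe CDK9 cells to 0.641 of the WT level (-0.64 ± 0.041 on the log2 scale, adjusted p = 1.39e-13).

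**Figure D3:**
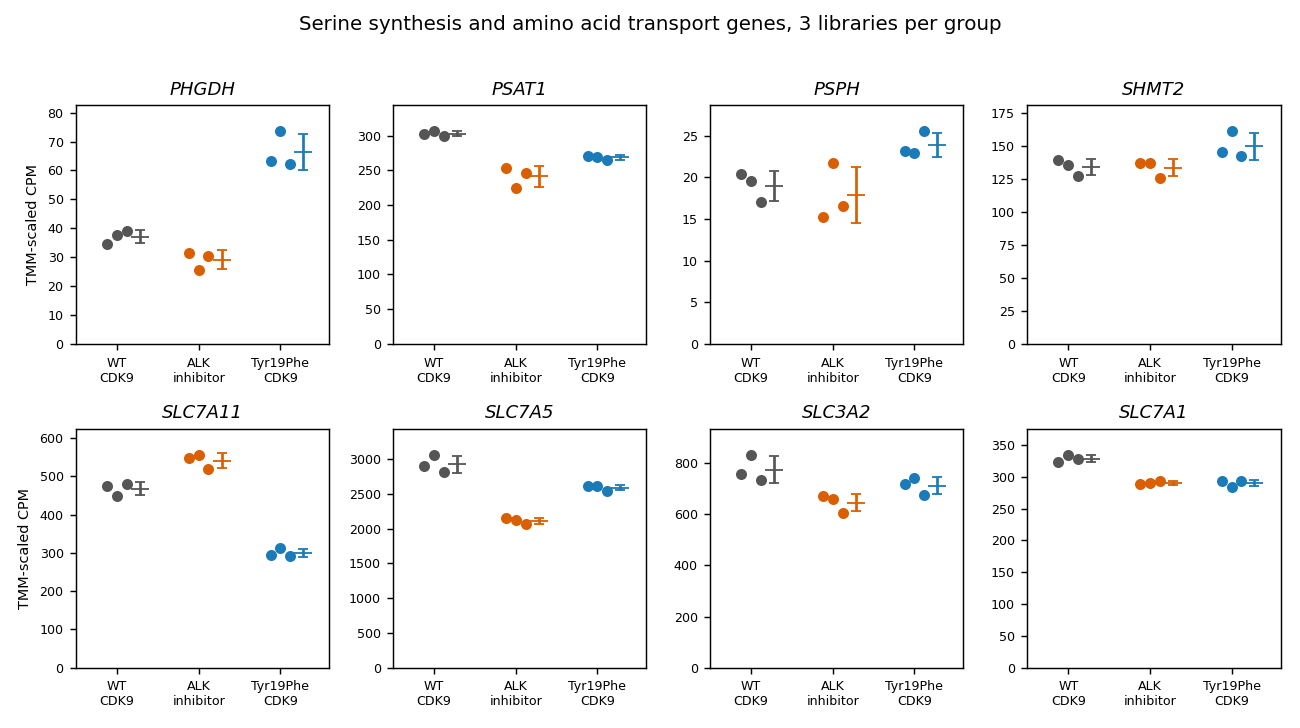
TMM-scaled CPM (y axis, from 0) of 4 serine and folate enzymes and 4 transporters in each library of the 3 groups (x axis); dots are libraries, and the line and bars are the mean and SD of 3. PHGDH and SLC7A11 are ordered in opposite ways over the groups, and SLC7A5 is highest in WT CDK9 cells.

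Of the 4 tRNA charging and export genes, none passed the test with the inhibitor (DESeq2 called 0, and 1 was higher at an unadjusted p under 0.05). Over all genes tested, 1.82% were higher and 2.73% lower with the inhibitor. Tyr19Phe CDK9 cells had 1 of the 4 higher and 1 lower, beside 7.61% and 10.4% of all genes tested. In Tyr19Phe CDK9 cells AARS, the alanyl-tRNA synthetase, rose from 183 ± 9.70 CPM to 217 ± 6.94 CPM (SD, n = 3; 0.24 ± 0.047 on the log2 scale, adjusted p = 2.50e-04). GARS, the glycyl-tRNA synthetase, was at 144 ± 8.68 CPM and 159 ± 7.68 CPM and missed the threshold (adjusted p = 0.0517), which it passed without WT replicate 3 (0.0199) or Tyr19Phe replicate 1 (0.0243). Its adjusted p ranged from 0.0193 to 0.261 over 16 alternatives. WARS, the tryptophanyl-tRNA synthetase, gave 0.0034 ± 0.056. XPOT, the tRNA export receptor, fell (-0.17 ± 0.043 on the log2 scale, adjusted p = 0.0053), with an adjusted p of 0.0506 without WT replicate 1.

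In the ER arm, 1 of 4 sensors and factors passed in Tyr19Phe CDK9 cells and 0 passed with the inhibitor, where DESeq2 also called 0 and 1 was higher at an unadjusted p under 0.05. Of all genes tested, 7.61% were higher and 10.4% lower in Tyr19Phe CDK9 cells, and 1.82% and 2.73% with the inhibitor. XBP1 (chromosome 22 from 28794555 to 28800597), the factor that IRE1 activates by splicing, measured 62.4, 68.1 and 67.3 CPM in WT CDK9 cells, 70.3, 66.2 and 58.1 CPM with the ALK inhibitor and 93.6, 95.8 and 93.0 CPM in Tyr19Phe CDK9 cells. The Tyr19Phe CDK9 libraries were all far above the other 6, which overlapped, and XBP1 was 1.43-fold over WT there (0.51 ± 0.069 on the log2 scale, adjusted p = 1.06e-06). Gene counts add spliced and unspliced XBP1 mRNA together. The sensors ATF6, ERN1 and EIF2AK3 gave values of -0.063 ± 0.068, -0.049 ± 0.13 and 0.073 ± 0.11 in Tyr19Phe CDK9 cells and 0.075 ± 0.069, -0.031 ± 0.14 and 0.24 ± 0.11 with the inhibitor, on the log2 scale, and did not pass.

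Of the 9 chaperones and folding enzymes, 1 rose and 5 fell in Tyr19Phe CDK9 cells, beside 7.61% and 10.4% of all genes tested. The single rise is near that background. With the inhibitor 1 rose and 0 fell in edgeR, beside 1.82% and 2.73% of all genes tested. At an unadjusted p under 0.05 and by DESeq2 alike, 3 were higher and 0 lower. DESeq2 called 361 genes higher and 486 lower over all genes, and the share at the unadjusted threshold was not counted. HSPA5, the main ER chaperone BiP and the usual mark of the response, measured 626, 632 and 656 CPM in WT CDK9 cells, 676, 617 and 621 CPM with the ALK inhibitor and 608, 579 and 580.1 CPM in Tyr19Phe CDK9 cells. The Tyr19Phe CDK9 libraries lay just below those of WT, and the inhibitor libraries overlapped those of WT. The fall in Tyr19Phe CDK9 cells was small (-0.11 ± 0.039 on the log2 scale, adjusted p = 0.037) and was lost under 10 of 16 alternatives, among them leaving out WT replicate 1, 2 or 3 (adjusted p = 0.0677, 0.0556 and 0.192) or Tyr19Phe replicate 2 or 3 (0.142 and 0.156). A threshold of adjusted p under 0.01 was 1 of these 10. With the inhibitor the value of HSPA5 was 0.0010 ± 0.039. HYOU1, a large ER chaperone with TGACGTGG letters in its promoter, measured 213, 226 and 213 CPM in WT CDK9 cells, 226, 222 and 226 CPM with the ALK inhibitor and 165, 165 and 163 CPM in Tyr19Phe CDK9 cells. Here the Tyr19Phe CDK9 libraries were clearly apart from the others, and the fall was larger (-0.40 ± 0.044 on the log2 scale, adjusted p = 2.62e-08).

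HSP90B1, the ER HSP90 (GRP94), was at 1072, 1026 and 1086 CPM in WT, 1136, 1146 and 1165 CPM with the inhibitor and 1021, 948 and 986 CPM in Tyr19Phe CDK9 cells. The 3 groups did not overlap, and both differences were small. It rose with the inhibitor (0.11 ± 0.034 on the log2 scale, adjusted p = 0.0486) and fell in Tyr19Phe CDK9 cells (-0.11 ± 0.034 on the log2 scale, adjusted p = 0.0253). The first call was lost without WT replicate 1 or 2 (adjusted p = 0.103 and 0.192) or Ai replicate 1, 2 or 3 (0.0794, 0.117 and 0.183). The second was lost without WT replicate 1 or 3 (0.119 and 0.143) or Tyr19Phe replicate 2 or 3 (0.183 and 0.0799), and with libraries scaled by the upper quartile or by size alone (0.0778 and 0.101).

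DNAJC3, the co-chaperone P58IPK that inhibits PERK, and PDIA6, a disulfide isomerase, fell in Tyr19Phe CDK9 cells (-0.29 ± 0.069 and -0.17 ± 0.041 on the log2 scale, adjusted p = 0.00285 and 0.00294). The calcium-binding chaperone CALR, the isomerase PDIA4 and the co-chaperone DNAJB9 did not pass, with values of 0.019 ± 0.032, -0.041 ± 0.040 and -0.21 ± 0.14. SDF2L1, a co-factor of BiP known to respond to ER stress, was the exception in direction. It measured 10.5, 10.2 and 11.2 CPM without the inhibitor, 9.26, 9.78 and 9.30 CPM with it and 13.0, 15.9 and 15.4 CPM in Tyr19Phe CDK9 cells, with the Tyr19Phe CDK9 libraries above and the inhibitor libraries below those of WT. SDF2L1 rose in Tyr19Phe CDK9 cells (0.47 ± 0.14 on the log2 scale, adjusted p = 0.0163), a call lost without WT replicate 1 or 2 (adjusted p = 0.0547 and 0.0574) or Tyr19Phe replicate 2 or 3 (0.0807 and 0.0554).

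Of the 3 ER-associated degradation genes, 1 rose and 1 fell in Tyr19Phe CDK9 cells, beside 7.61% and 10.4% of all genes tested. So few genes give no result about this group. HERPUD1, an ER membrane protein of the degradation complex whose promoter holds the TGATGNAA letters printed above, measured 47.0, 43.2 and 47.9 CPM in WT CDK9 cells, 47.4, 49.5 and 50.7 CPM with the ALK inhibitor and 66.6, 59.6 and 63.3 CPM in Tyr19Phe CDK9 cells. Its Tyr19Phe CDK9 libraries lay above all others, 1.37-fold over WT (0.46 ± 0.075 on the log2 scale, adjusted p = 2.73e-05). SEL1L, the adaptor that stabilises the HRD1 ubiquitin ligase of the same complex, measured 111, 112 and 121 CPM in WT CDK9 cells, 120.1, 112 and 114 CPM with the ALK inhibitor and 91.0, 87.0 and 84.4 CPM in Tyr19Phe CDK9 cells. Its Tyr19Phe CDK9 libraries lay below all others, and SEL1L fell (-0.39 ± 0.057 on the log2 scale, adjusted p = 4.36e-06). EDEM1, a lectin that delivers misfolded glycoproteins, had means of 123 ± 0.199 CPM (WT) and 121 ± 3.29 CPM (Tyr19Phe CDK9; SD, n = 3; -0.021 ± 0.052 on the log2 scale). With the inhibitor 0 of these 3 genes passed, beside 1.82% higher and 2.73% lower of all genes tested. In that comparison 0 reached an unadjusted p under 0.05 and DESeq2 called 0.

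**Figure D4:**
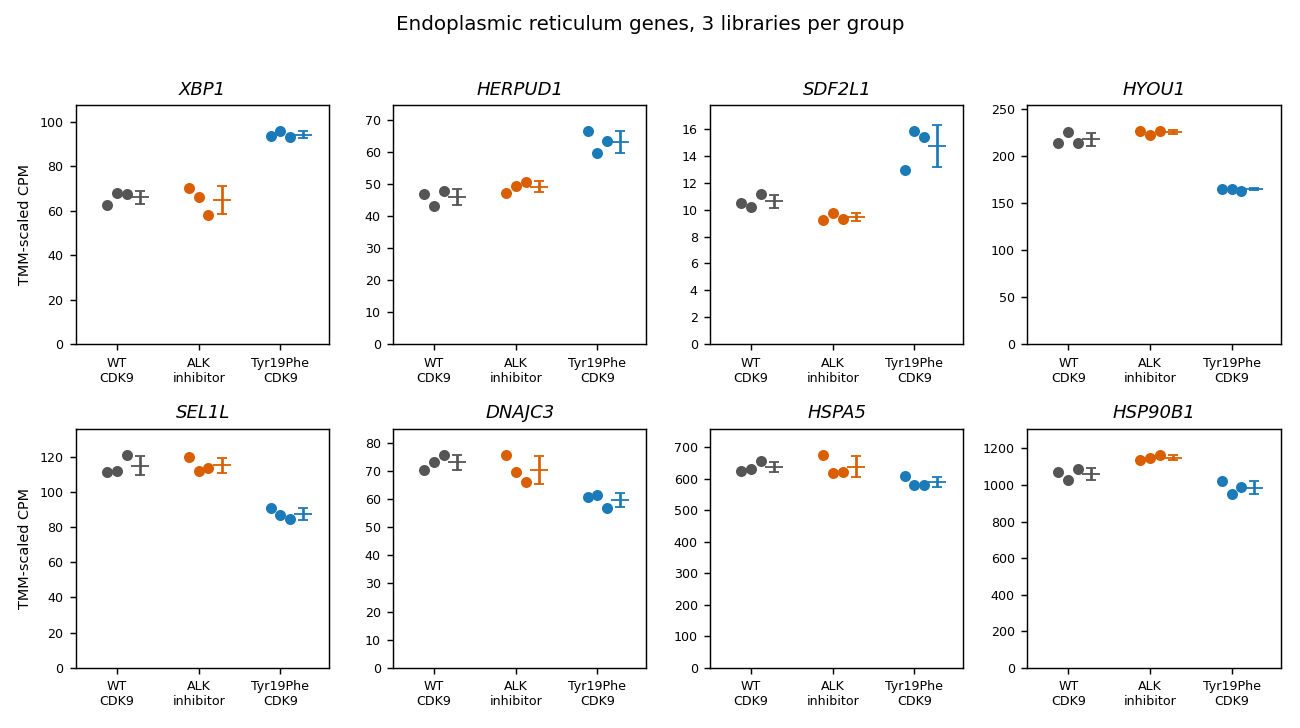
TMM-scaled CPM (y axis, from 0) of 8 ER arm genes in each library of the 3 groups (x axis); dots are libraries, and the line and bars are the mean and SD of 3. XBP1, HERPUD1 and SDF2L1 are highest and HYOU1 and SEL1L lowest in Tyr19Phe CDK9 cells, while HSPA5 differs little.

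The direct comparison of Tyr19Phe CDK9 cells with the inhibitor group tests whether the 2 conditions differed. In it 9.57% of all genes tested were higher and 11.1% lower in Tyr19Phe CDK9 cells. In the ATF4 arm 5 of 8 regulators were higher in Tyr19Phe CDK9 cells: ATF4 (0.38 ± 0.050), TRIB3 (1.10 ± 0.10), CHAC1 (0.95 ± 0.22), PPP1R15A (0.47 ± 0.10) and VLDLR (0.34 ± 0.099) on the log2 scale, with adjusted p-values between 9.06e-10 and 0.0121. Among the 8 synthesis genes 5 were higher, namely PHGDH (1.19 ± 0.090, adjusted p = 8.02e-12), PSPH (0.42 ± 0.12), MTHFD2 (0.27 ± 0.053), SHMT2 (0.17 ± 0.056) and PSAT1 (0.15 ± 0.044). SLC7A5 (0.29 ± 0.030) and SLC3A2 (0.14 ± 0.044) were also higher, SLC7A11 was lower (-0.85 ± 0.041, adjusted p = 1.02e-16), and SLC7A1 was near 0 (-0.00079 ± 0.040). AARS and GARS were higher (0.17 ± 0.047 and 0.19 ± 0.053) and XPOT lower (-0.15 ± 0.043). In the ER arm XBP1 (0.54 ± 0.069), SDF2L1 (0.64 ± 0.14) and HERPUD1 (0.36 ± 0.075) were higher. The 7 that were lower were HYOU1 (-0.45 ± 0.044), SEL1L (-0.40 ± 0.057), DNAJC3 (-0.24 ± 0.069), HSP90B1 (-0.22 ± 0.034), PDIA6 (-0.21 ± 0.041), PDIA4 (-0.17 ± 0.040) and HSPA5 (-0.12 ± 0.039).

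Leaving out 1 library ended 9 of these calls. VLDLR was lost without Ai replicate 3 (adjusted p = 0.0742) or Tyr19Phe replicate 1 (0.085), PSAT1 without Ai replicate 2 (0.129), and GARS without Tyr19Phe replicate 3 (0.0617). PSPH was lost without Ai replicate 1 or 3 (0.107 and 0.0695) or Tyr19Phe replicate 3 (0.062). SHMT2 was lost without Ai replicate 3 (0.178) or Tyr19Phe replicate 2 (0.224), and SLC3A2 without Ai replicate 3 (0.162) or Tyr19Phe replicate 1 or 2 (0.0533 and 0.105). XPOT was lost without Ai replicate 1 (0.0509) or Tyr19Phe replicate 2 or 3 (0.0571 and 0.0574). HSPA5 was lost without Ai replicate 1 (0.27) or Tyr19Phe replicate 2 or 3 (0.115 and 0.128), and DNAJC3 without Ai replicate 1 (0.114) or Tyr19Phe replicate 3 (0.0782). The number of ATF4 arm genes called lower was 1 in place of 2 without Ai replicate 1 or Tyr19Phe replicate 2 or 3.

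Around some of the genes, the other genes of the same stretch of chromosome had a median away from 0 in Tyr19Phe CDK9 cells. How such medians spread around all genes tested was not examined, so it is not known whether these are unusual. The median log2 fold change of the tested genes within 5 Mb was 0.22 around ATF4 (146 genes), 0.17 around XBP1 (90) and 0.24 around SDF2L1 (118), 3 genes of chromosome 22. Less its neighbours' median, ATF4 was at 0.069, XBP1 at 0.35 and SDF2L1 at 0.23. Neighbours of SLC7A11 had a median of -0.20 and those of SEL1L of -0.14, which leaves -0.44 and -0.26 for these genes. Around TRIB3, CHAC1, HERPUD1 and HYOU1 the medians were 0.0020, -0.082, 0.077 and 0.063, and around PHGDH 0.13. WARS, near 0 itself, lay among genes with a median of -0.27. The median around HSPA5 was 0.13, but -0.19 within 2 Mb. DNA copy number was not measured, and its part in these values was not tested. With the inhibitor, the medians around ATF4, XBP1 and SDF2L1 were -0.0059, -0.024 and -0.045.

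**Figure D5:**
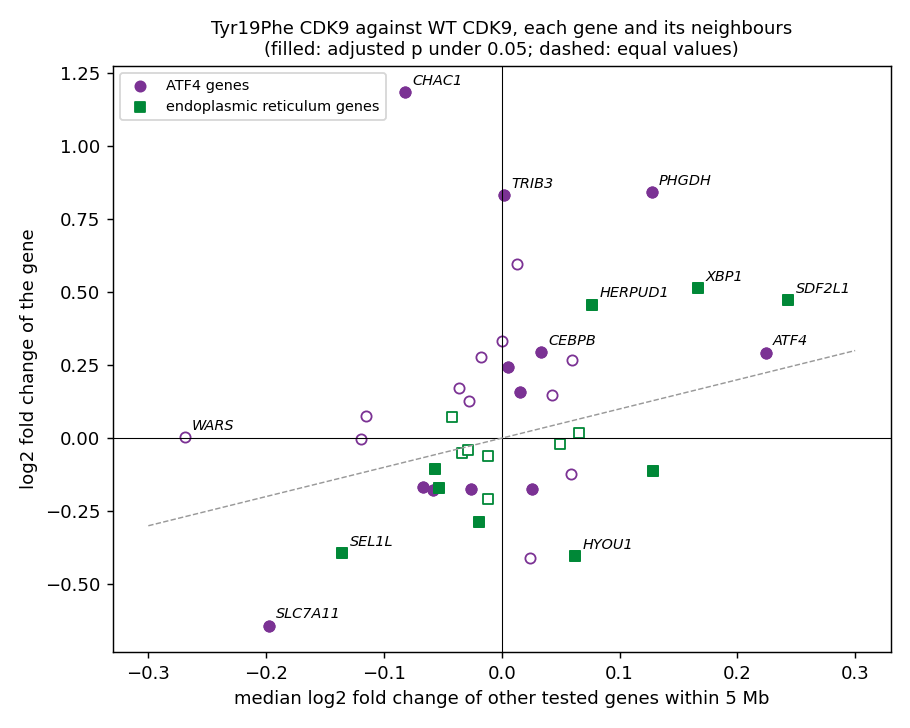
Log2 fold change of each of the 40 genes in Tyr19Phe CDK9 cells against WT (y axis) by the median log2 fold change of the tested genes within 5 Mb (x axis); points are genes. ATF4 and SDF2L1 lie among neighbours with medians of 0.22 and 0.24, while TRIB3 and CHAC1 rose among neighbours with medians of 0.0020 and -0.082.

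Other genes of the same pathways were examined from lists written beside the 40. Of 12 genes of the eIF2 kinases, eIF2 subunits and their regulators, 1 fell with the inhibitor (EIF2S2, -0.20 ± 0.056, adjusted p = 0.0346), a call lost without WT replicate 3 or Ai replicate 2. Of all genes tested, 2.73% fell with the inhibitor. In Tyr19Phe CDK9 cells 0 of the 12 rose in edgeR (1 at an unadjusted p under 0.05, 0 by DESeq2) and 2 fell, against 7.61% and 10.4% of all genes tested. The 2 were EIF2AK4, which encodes GCN2 (-0.32 ± 0.042, adjusted p = 8.44e-07), and the eIF2 alpha subunit gene EIF2S1 (-0.25 ± 0.046, adjusted p = 1.60e-04). Against the inhibitor group, 2 were higher and 2 lower, beside 9.57% and 11.1% of all genes tested, led by EIF2AK4 (-0.33 ± 0.042), EIF2S3 (0.16 ± 0.042) and EIF2S2 (0.18 ± 0.055); the number higher was 1 without Ai replicate 2 or 3 or Tyr19Phe replicate 3, and the number lower was 1 without Ai replicate 2 or 3 or any 1 Tyr19Phe library.

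Of 32 other ATF4 target genes, 31 were tested, since GDF15, a secreted stress hormone gene with 0 to 14 counts per library, did not pass the filter. With the inhibitor 2 rose, DDIT4, an inhibitor of mTORC1 (1.02 ± 0.28 on the log2 scale, adjusted p = 0.0253), and KLHL24 (0.62 ± 0.18 on the log2 scale, adjusted p = 0.0446), of which 0 remained without WT replicate 1 or without Ai replicate 1, and 1 without WT replicate 3, Ai replicate 2 or Ai replicate 3. Of all genes tested, 1.82% rose with the inhibitor. DDIT4 was at 1.64, 3.69 and 2.03 CPM in WT, 6.74, 4.45 and 3.67 CPM with the inhibitor and 8.70, 11.1 and 6.90 CPM in Tyr19Phe CDK9 cells. In Tyr19Phe CDK9 cells 6 of the 31 rose and 4 fell, against 7.61% and 10.4% of all genes tested. The number falling is near that background. The calls were led by the glutamine transporter SLC38A2 (0.28 ± 0.040, adjusted p = 2.16e-06), DDIT4 (1.86 ± 0.27, adjusted p = 3.74e-06) and the translation repressor EIF4EBP1 (0.46 ± 0.088, adjusted p = 2.09e-04). The 4 that fell, named after their values were seen, were PYCR1 (-0.39 ± 0.082), ATF5 (-0.32 ± 0.075), JDP2 (-0.34 ± 0.090) and NARS (-0.13 ± 0.040). Directly against the inhibitor group, 9 were higher and 2 lower, against 9.57% and 11.1% of all genes tested, led by EIF4EBP1 (0.50 ± 0.088), SLC38A2 (0.20 ± 0.040) and the stanniocalcin gene STC2 (0.99 ± 0.23). The number higher was 4 without Ai replicate 3 and 5 without Tyr19Phe replicate 2, and the number lower was 1 without any 1 inhibitor library and 0 without Tyr19Phe replicate 1 or 3.

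Of 37 other ER stress genes, 0 passed edgeR's test with the inhibitor, beside 1.82% higher and 2.73% lower of all genes tested. At an unadjusted p under 0.05, 8 were higher and 0 lower, and DESeq2 called 2 higher. Over all genes DESeq2 called 361 higher and 486 lower. The share of all genes at an unadjusted p under 0.05 was not counted, so the 8 are no result about this list. Leaving out Ai replicate 2 gave 1 higher. In Tyr19Phe CDK9 cells 3 of the 37 rose and 4 fell. This is close to the 7.61% and 10.4% of all genes tested and is no result about this list. The number rising was 6 without WT replicate 2, and the number falling was 2 without WT replicate 1, Tyr19Phe replicate 2 or Tyr19Phe replicate 3. The leading gene was CREB3L1, an ER-membrane transcription factor related to ATF6. Its mean was 4.50 ± 0.649 CPM in WT CDK9 cells and 4.26 ± 0.597 CPM with the inhibitor (SD, n = 3), and it measured 0.305, 0.214 and 0.717 CPM in the Tyr19Phe CDK9 libraries, all far below the other 6 (-3.45 ± 0.38 on the log2 scale, adjusted p = 3.66e-08). The ER oxidase gene ERO1A fell (-0.31 ± 0.053, adjusted p = 4.61e-05) and TRAF2, an adaptor of IRE1, rose (0.39 ± 0.10, adjusted p = 0.00617). Directly against the inhibitor group, 2 were higher and 5 lower, against 9.57% and 11.1% of all genes tested, led by CREB3L1 (-3.37 ± 0.38), ERO1A (-0.37 ± 0.053) and the vesicle coat gene SEC24D (-0.40 ± 0.067).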

How the data were processed

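RNA of SKOV3 cells was sequenced in 3 groups of 3 libraries, grouped by the deposited labels. The authors deposited whole-number counts of reads per gene, without normalization; their processing notes name CASAVA, HISAT2 2.0.5 and featureCounts 1.5.0-p3 with GRCh38/hg38, and annotation and strandedness are not given in the sources used here. All 9 libraries (18169050 to 29320184 counts) were fitted together in edgeR 4.0.16 (R 4.3.3): filterByExpr (minimum count 10, minimum total 15) left 16350 genes, libraries were scaled by TMM, and group means were fitted by quasi-likelihood with 6 residual degrees of freedom, and p-values were adjusted over all tested genes by Benjamini-Hochberg. A gene was called at an adjusted p below 0.05. DESeq2 1.42.0 was an alternative. Exon overlaps came from GENCODE 44 and promoters from RefSeq.

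The 40 genes and the other lists were chosen with earlier results of these data known. All 40 are named, with values by library for those called with a log2 fold change of at least 0.3 in size in any comparison. ATF4, DDIT3, XBP1, HSPA5 and ASNS have them in any case. Outside this rule, values by library are also given for CEBPB, MTHFD2, SLC3A2 and HSP90B1. Of each other list, the 3 called genes with the smallest adjusted p per comparison are named. Libraries with the same replicate number were not paired, since none of their deviations correlated above 0.1. Figures were drawn with Python 3.11.15 and matplotlib 3.10.9.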

Additional observations from a re-analysis of the deposited data

Results flagged for a closer look

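Of the 40 genes, 3 were called in opposite directions against WT CDK9 cells in the inhibitor group and in Tyr19Phe CDK9 cells, with the direct contrast of these groups also called in edgeR. How many of all genes tested met the same rule was not counted, so the number is no result about the 40 genes. For PHGDH the log2 fold change of Tyr19Phe CDK9 against the inhibitor group was 1.19 (standard error 0.090, adjusted p = 8.02e-12), from -0.34 with the inhibitor and 0.84 in Tyr19Phe CDK9 cells. For SLC7A11 it was -0.85 (standard error 0.041, adjusted p = 1.02e-16), from 0.21 and -0.64. For HSP90B1 it was -0.22 (standard error 0.034, adjusted p = 9.18e-06), from 0.11 and -0.11. The opposite calls of HSP90B1 against WT are weak, since each was lost under 8 of 16 alternatives, among them leaving out 1 library (5 of 6 libraries for the inhibitor, adjusted p = 0.0486, and 4 of 6 for Tyr19Phe CDK9, adjusted p = 0.0253). A threshold of adjusted p under 0.01 was 1 of the 8 in each case. The inhibitor call of PHGDH was lost under 4 of 16, of which 3 left out 1 library and 1 was that threshold. The direct contrasts of these 3 genes and both calls of SLC7A11 were kept under all 16. In each of the 3 genes all 3 libraries of the inhibitor group lay on one side of the WT libraries and all 3 Tyr19Phe CDK9 libraries on the other. This order largely follows from the calls by which the 3 genes were picked.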

How the results depend on the processing

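Each member was examined under 16 alternatives per comparison, and no called gene changed direction. Of these 16, 1 is the main fit at an adjusted p under 0.01, which ends any call between 0.01 and 0.05 by definition. Each call that it ended was also lost when 1 library was left out. Calls kept in all 16 were 5 of 7 with the inhibitor, 15 of 21 in Tyr19Phe CDK9 cells and 17 of 26 in the direct comparison, and 2, 6 and 1 uncalled genes passed in at least 1. The ER arm genes called higher with the inhibitor (1) became 2 with upper quartile scaling or protein-coding genes only, 3 with library size alone or DESeq2, and 0 without the filter or at an adjusted p under 0.01, and 0 to 1 when a library was left out. ATF4 arm genes called higher in Tyr19Phe CDK9 cells (7) became 11 with upper quartile scaling or with library size alone. In the direct comparison, at an adjusted p under 0.01, ATF4 arm genes called higher (14) became 9 and those called lower (2) became 1, and leaving out a library gave 1 to 2 of the latter. With library size alone the calls over all genes with the inhibitor were 406 higher and 344 lower, against 297 and 447. Same-numbered libraries share only a number (correlations of deviations from -0.018 to 0.098, against -0.071 to 0.055 for the others). A replicate block gave 1 higher and 5 lower ATF4 arm genes with the inhibitor and 9 and 6 in Tyr19Phe CDK9 cells. Over all genes the block called 324 higher and 494 lower with the inhibitor. In Tyr19Phe CDK9 cells it called 1318 and 1758, against 1245 and 1695 in the main fit. ASNS could not be fitted with at least 10 counts in every library. ASNS and DDIT3 are limited by depth, and neighbour medians in Tyr19Phe CDK9 cells moved by more than the gene's standard error for 10 of 40 genes with a 2 Mb window and 1 with 10 Mb.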
